A study of Mus musculus with 6 samples.

Results

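The 10 genes described here encode the main heat shock chaperones of the cytosol and the mitochondrial matrix: Hspa1a, Hspa1b, Hspa8, Hsph1, Dnajb1, Hsp90aa1, Hsp90ab1, Hspb1, Hspd1 and Hspe1. They were fixed as a list of symbols with no threshold on measured values, and were looked up by gene identifier among the 47069 genes of the count table. All 10 were present and all 10 passed the filter on low counts.

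Bulk RNA-seq was carried out on LβT2 cells, an immortalized mouse gonadotrope line (the pituitary cells that make luteinizing and follicle-stimulating hormone), at passage 14. Every culture received gonadotropin-releasing hormone (GnRH) at 2 nM for 40 min and was then trypsinized, so fresh and RNA-Best samples share the hormone and the detachment step, and no vehicle-treated sample was analysed here. In the 3 fresh libraries the pelleted cells went straight into guanidinium thiocyanate lysis buffer. In the 3 RNA-Best libraries they were kept in that preservative for at least 4 days at 4 °C before the same lysis. The comparison asks whether storage in RNA-Best leaves transcript levels where they are in fresh cells. Separate cultures are not stated for the libraries of either group, so p-values measure the spread between libraries, which may be technical.

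Heat shock proteins bind unfolded or partly folded proteins and keep them from aggregating. HSP70 proteins hold short exposed stretches in a cycle driven by ATP, with J-domain proteins starting the cycle and HSP110 proteins exchanging the nucleotide, while HSP90 acts later on kinases and hormone receptors, and the HSP60 and HSP10 chaperonin encloses proteins imported into mitochondria. Heat, oxidants and proteotoxic agents raise many of these genes through heat shock factor 1, which binds inverted repeats of the unit GAA upstream of them, whereas Hspa8 and Hsp90ab1 are the abundant constitutive forms in most cells.

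Sequences upstream of RefSeq start sites are shown because they carry the elements that this stress response reads. RefSeq start sites on GRCm38.p6 were matched for 7 of the 10 genes, the exceptions being Hspa8, Hsp90aa1 and Hsp90ab1. The 250 bases before each start were searched on both strands for a pair of units, GAANNTTC or TTCNNGAA, where overlapping pairs make longer runs. A pair was present for Hspa1a, Hspa1b, Hsph1, Hspb1, Hspd1 and Hspe1 and was not found in this window for Dnajb1. For Hspd1 it lay before the start at 55087932, and no pair was found before its other start, at 55088243. Counted per start site, 12.8% of all 32851 promoters of the same length held at least 1 pair. Capitals mark the units, and each sequence reads in the direction of its gene.
Hspa1a and Hspa1b: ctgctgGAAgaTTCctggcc
Hsph1: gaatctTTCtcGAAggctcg
Hspb1, first pair: acaagaGAAgtTTCcagatg
Hspb1, second pair: ggggcaGAAccTTCctggcc
Hspe1: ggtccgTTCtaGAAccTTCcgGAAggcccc
Hspd1: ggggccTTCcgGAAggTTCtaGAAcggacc

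The Hspa1a stretch lies at chr17:34972247-34972266 and the identical Hspa1b stretch at chr17:34959329-34959348, both on the minus strand. The Hsph1 stretch is at chr5:149636356-149636375 on the minus strand, upstream of the RefSeq start sites but within the first bases of Hsph1 in the annotation used for lengths, and the Hspb1 pairs are at chr5:135887796-135887815 and chr5:135887816-135887835 on the plus strand. Hspd1 and Hspe1 are transcribed away from each other from the same region, so their sequences above are the 2 strands of the same bases, chr1:55088053-55088082. This stretch holds 4 alternating units in a row, and runs of at least 3 alternating units occurred in 0.466% of all promoters. In the annotation it lies before the first base of Hspe1 and within the first exon of an alternative Hspd1 transcript. These matches describe letters and were not tested for binding of any factor.

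Hspa1a and Hspa1b are neighbours on chromosome 17 (34969190 to 34972156 and 34956436 to 34959238 on GRCm38) that both encode the stress-inducible HSP70. Their coding sequences of 1923 and 1926 bases were 99.4% identical, with 8 mismatched bases and a gap of 3 bases, and the 250 bases upstream of their starts differed at 3 positions. The first 2 coding differences are shown with 10 bases on each side because a read can be given to the right gene only where it covers such a base, which is in capitals. Positions are counted from the A of the start codon, and the differences, A156G and T795G from Hspa1a to Hspa1b, both fall on codon position 3.
Hspa1a around coding position 156: gcctcatcggAgacgccgcca
Hspa1b around coding position 156: gcctcatcggGgacgccgcca
Hspa1a around coding position 795: ggctgcgcacTgcgtgtgaga
Hspa1b around coding position 795: ggctgcgcacGgcgtgtgaga

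The Hspa1a bases are at chr17:34971760-34971780 and chr17:34971121-34971141, and the Hspa1b bases at chr17:34958842-34958862 and chr17:34958203-34958223. Of all stretches of 100 bases in the longest coding transcript, 56.5% of those of Hspa1a and 49.9% of those of Hspa1b occurred unchanged in a transcript of another gene. The share was 63.4% for Hspa8, 47.6% for Hsp90aa1, 42.7% for Hspb1, 26.9% for Hspd1 and 22.4% for Hspe1, and 0 for Hsph1, Dnajb1 and Hsp90ab1. Values of the genes with shared stretches are therefore uncertain where reads were split, and parts of counts were present in the table. Hsp90ab1 held parts of counts in 4 libraries although none of its stretches was shared, while Hsph1 and Dnajb1 held whole counts only. Exons of Hspd1 and Hspe1 also overlap by 112 bases on opposite strands, and 564 exonic bases of Hspa1a overlap Gm20481 on the opposite strand. Whether reads were counted by strand is not given in the sources used here, so reads from such stretches may have gone to either gene.

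Library depth ranged from 14477304 to 47438746 counts in the fresh and from 4909418 to 11999363 counts in the RNA-Best libraries, so the low members rest on few counts in RNA-Best. Levels are given as CPM, a gene's counts scaled to the same total in every library. The gonadotrope genes Cga, Nr5a1, Pitx1, Gnrhr and Lhb were all expressed, with Fshb at 0 in all 6 libraries, and the markers of other pituitary and non-endocrine cells stayed at or under 4.07 CPM apart from Pecam1. These markers differed between groups too, since the summed gonadotrope markers held 3050.5 to 3094 CPM in fresh and 2539 to 2610.5 CPM in RNA-Best libraries. By edgeR, Cga (-0.36, adjusted p = 7.56e-14), Nr5a1 (-0.21, adjusted p = 5.33e-08), Pitx1 (-0.22, adjusted p = 5.35e-08) and Pecam1 (-0.15, adjusted p = 0.015) were lower with RNA-Best on the log2 scale. Gnrhr (0.43, adjusted p = 5.66e-11) and Tshb (0.91, adjusted p = 0.0035) were higher, and Tshb rested on 6 to 20 counts in RNA-Best and 15 to 44 in fresh libraries. With the exonic length offset described further on, these markers stayed called in the same direction, with Cga at -0.22. Lhb was then called higher as well (0.18, edgeR, adjusted p = 0.0212). The summed level of the 6 non-endocrine markers, of which Ptprc was at 0 throughout and Pecam1 made up most, was 45.2 to 46.0 CPM in fresh and 40.6 to 44.8 CPM in RNA-Best libraries, and the part of these markers in the results below was not tested.

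The chaperone genes as a group took overlapping shares of the counts in the fresh and RNA-Best libraries. The 10 genes together held 0.502%, 0.488% and 0.495% of all counts in the fresh libraries and 0.492%, 0.495% and 0.505% in the RNA-Best libraries. The means were 0.495% ± 0.00674 (SD, n = 3) and 0.497% ± 0.00671 (SD, n = 3). Hspa8 and Hsp90ab1 supplied most of these counts, with mean shares of 39.6% and 37.5% of the members' total, while Hspa1a supplied 0.0608%. Dividing each gene by its exonic length gave 0.361% ± 0.00701 in fresh and 0.385% ± 0.00436 in RNA-Best libraries (SD, n = 3), and these ranges did not overlap.

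Per kilobase of exonic length the levels spanned from 615 CPM for Hsp90ab1 to 1.01 CPM for Hspa1a, as means of the fresh libraries. Hsp90ab1 was followed by Hspa8 at 457, Hsp90aa1 at 151, Hspd1 at 110, Hspe1 at 51.0, Dnajb1 at 20.7, Hsph1 at 12.7, Hspb1 at 7.65 and Hspa1b at 3.14 CPM per kilobase. Over all 6 libraries no gene's range reached that of its neighbour in this order. The order depended on the length used, since per kilobase of the longest coding transcript Hspa8 at 821 came before Hsp90ab1 at 732, and Hsph1 at 24.3 before Dnajb1 at 22.2. The constitutive forms thus stood far above the inducible Hspa1a and Hspa1b under either length.

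**Figure D1:**
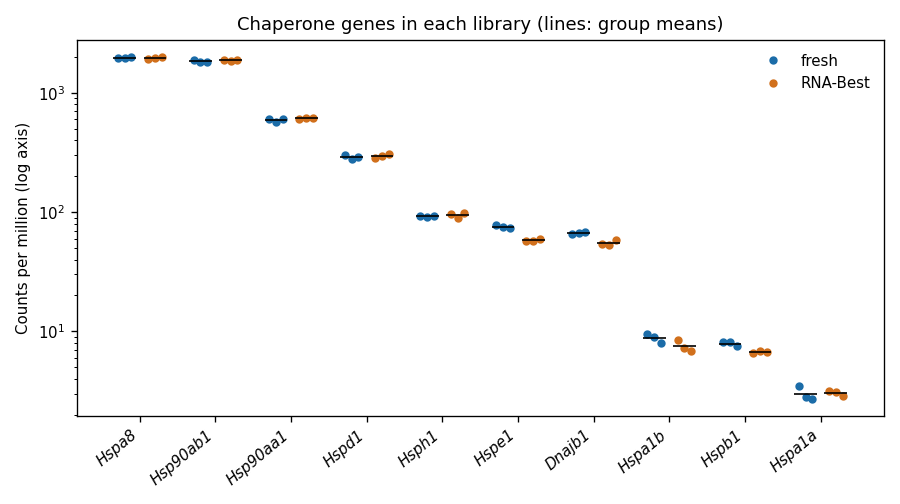
CPM of the 10 chaperone genes on a log axis, with 1 point per library (3 fresh, 3 RNA-Best) and lines at the group means. Genes are ordered by the mean of the fresh libraries and are not divided by length; the RNA-Best points of Dnajb1, Hspb1 and Hspe1 all lie below the fresh points.

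Each gene was compared between preparations by a quasi-likelihood test in edgeR, fitted over the 14736 genes past the filter with Benjamini-Hochberg adjustment and a threshold of 0.05. Of the 10 chaperone genes, 4 were called, which is 40% beside 50.8% of all genes tested. All 4, namely Hspe1, Hspa1b, Hspb1 and Dnajb1, were lower in RNA-Best, beside 24.8% of all genes called lower, and 0 were higher, beside 26.0% called higher. No member was higher at an unadjusted p under 0.05 in edgeR, DESeq2 or limma-voom. The share of all genes past that unadjusted threshold was not computed, so counts at it have no background here. These tools called 4, 2 and 3 members lower, beside 18.7% of all genes lower in DESeq2 and 24.2% in limma-voom. The median log2 fold change (RNA-Best over fresh) of the 10 was -0.03, and that of all genes tested was -0.01. The CPM of the groups did not overlap in 4 of the 10, Dnajb1, Hspb1, Hspe1 and Hsp90aa1, beside 57.5% of all genes tested. In bulk samples, fewer cells that express a gene and less of its RNA per cell cannot be told apart.

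Among the HSP70 proteins, the constitutive Hspa8, which folds new proteins and uncoats clathrin vesicles, was measured most precisely. Its CPM was 1961, 1947 and 1990 in fresh and 1930, 1968 and 1985 in RNA-Best libraries. The groups overlapped and no library stood apart. The log2 fold change was -0.02 ± 0.03 (edgeR, SE, adjusted p = 0.61).

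Hspa1a, the first of the inducible pair, was the lowest member, with 15.2 to 141 counts per library. Its CPM was 3.48, 2.83 and 2.72 in fresh and 3.13, 3.09 and 2.85 in RNA-Best libraries. The RNA-Best values all fell within the range of the fresh ones, and the fresh libraries varied by 13.6% where counting error alone gives 11.5%. Between groups the log2 fold change was -0.05 ± 0.18 (edgeR, SE, adjusted p = 0.856), an error wide enough that a change of the size seen in Hspa1b was not detectable for Hspa1a at this depth.

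Hspa1b, its near-identical neighbour, had CPM of 9.51, 8.93 and 7.93 in fresh and 8.38, 7.27 and 6.85 in RNA-Best libraries. RNA-Best replicate 1 lay above fresh replicate 3, so the groups overlapped, and both other RNA-Best values lay under every fresh one. Hspa1b was called lower, with a log2 fold change of -0.28 ± 0.11 (edgeR, SE, adjusted p = 0.0354). The call was lost without fresh replicate 1 (-0.23, adjusted p = 0.105), without RNA-Best replicate 2 (-0.27, adjusted p = 0.0728) and without RNA-Best replicate 3 (-0.18, adjusted p = 0.34). It was lost with the replicate number as a block as well (-0.23, adjusted p = 0.0951). When the counts of Hspa1a and Hspa1b were added before the fit, which removes the division of reads between the pair, the log2 fold change was -0.22 ± 0.10 (edgeR, SE, adjusted p = 0.0633).

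Hsph1 encodes HSP110, the nucleotide exchange partner of HSP70. Its CPM was 93.2, 91.1 and 93.2 in fresh and 96.7, 89.2 and 99.1 in RNA-Best libraries, and the RNA-Best values lay on both sides of the fresh ones. Hsph1 was not called, at a log2 fold change of 0.04 ± 0.04 (edgeR, SE, adjusted p = 0.386), a value whose sign depended on gene length as described further on.

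Dnajb1 encodes HSP40, the J-domain protein that loads clients onto HSP70, and it fell. Its CPM was 65.6, 66.3 and 67.5 in fresh and 54.5, 52.6 and 58.2 in RNA-Best libraries. Every RNA-Best value was under every fresh value, and the fresh libraries varied by 1.45%. On the log2 scale Dnajb1 changed by -0.26 ± 0.05 (edgeR, SE, adjusted p = 7.91e-06), or 0.833 of the fresh level. Leaving out any single library kept the call, with log2 fold changes from -0.31 to -0.24. A test against a change of 1.2-fold did not pass for Dnajb1 (glmTreat, adjusted p = 0.848).

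The HSP90 pair was not called in either direction. Hsp90aa1, the inducible cytosolic form, had CPM of 603, 574 and 600 in fresh and 607, 610 and 615 in RNA-Best libraries. The RNA-Best values lay narrowly above all fresh ones, and fresh replicate 2 was the low library. On the log2 scale the difference was 0.03 ± 0.03 (edgeR, SE, adjusted p = 0.358).

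Hsp90ab1, the constitutive form, had CPM of 1892, 1828 and 1813 in fresh and 1874, 1858 and 1905 in RNA-Best libraries, with overlapping groups. Its log2 fold change was 0.01 ± 0.03 (edgeR, SE, adjusted p = 0.704). The proteins of both genes serve largely the same clients.

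Hspb1 encodes HSP27 (HSP25 in the mouse), a small heat shock protein that holds unfolded proteins without ATP. Its CPM was 8.12, 8.08 and 7.46 in fresh and 6.61, 6.82 and 6.71 in RNA-Best libraries, from 33.5 to 384 counts per library. The groups did not overlap. Hspb1 changed by -0.27 ± 0.11 on the log2 scale (edgeR, SE, adjusted p = 0.0433), just inside the threshold. The call was lost without fresh replicate 1 (adjusted p = 0.0734), fresh replicate 2 (adjusted p = 0.0781), RNA-Best replicate 1 (adjusted p = 0.123), RNA-Best replicate 2 (adjusted p = 0.065) or RNA-Best replicate 3 (adjusted p = 0.161). With the replicate block it was lost as well (adjusted p = 0.0929), as it was in limma-voom (adjusted p = 0.0573). The log2 fold change stayed between -0.29 and -0.26 in the fits that left out a library.

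Of the mitochondrial chaperonin pair, 1 gene was called. Hspd1, which encodes the HSP60 barrel, had CPM of 303, 281 and 292 in fresh and 285, 297 and 310 in RNA-Best libraries, with overlapping groups. Its log2 fold change was 0.02 ± 0.03 (edgeR, SE, adjusted p = 0.735).

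Hspe1, which encodes HSP10, the lid of that barrel, had the lowest log2 fold change of the 10 in the fit without an offset. Its CPM was 77.7, 74.7 and 73.1 in fresh and 57.0, 57.0 and 59.8 in RNA-Best libraries. All RNA-Best values were under all fresh values, and the gap between the groups was wider than the spread within either. Its log2 fold change was -0.39 ± 0.04 (edgeR, SE, adjusted p = 3.97e-09), or 0.764 of the fresh level. Hspe1 was called in all 19 alternative fits tried for it, including the test against a change of 1.2-fold (glmTreat, adjusted p = 0.0107). Of the 8 table entries named as copies of Hspd1 or Hspe1, Hspd1-ps3 was the only one above 0.407 CPM in any library, with a mean of 24.8 in fresh and 23.0 in RNA-Best libraries.

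Shares within a family were compared because they do not depend on how libraries are scaled. With 3 libraries against 3 the exact permutation test, two-sided, cannot give a p under 0.1, so none of the 4 shares could pass the threshold. Hspd1 made up 79.6%, 79.0% and 80.0% of the summed Hspd1 and Hspe1 counts in fresh and 83.3%, 83.9% and 83.8% in RNA-Best libraries. The groups did not overlap, and the share was 4.16 percentage points higher with RNA-Best (exact permutation test, p = 0.1, adjusted over the 4 shares p = 0.2). This share was not corrected for gene length or for the exonic overlap of Hspd1 and Hspe1. Hspa1a made up 26.8%, 24.0% and 25.3% of the Hspa1a and Hspa1b counts in fresh and 27.5%, 29.4% and 29.3% in RNA-Best libraries (exact permutation test, p = 0.1, adjusted p = 0.2). That difference of 3.36 percentage points turned to -4.22 when the libraries were thinned to equal depth, so its direction was not stable at these counts.

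The remaining pair of shares overlapped between groups. Hsp90aa1 made up 24.2%, 23.9% and 24.9% of the HSP90 counts in fresh and 24.5%, 24.7% and 24.4% in RNA-Best libraries (exact permutation test, p = 0.5, adjusted p = 0.5). The inducible Hspa1a and Hspa1b together made up 0.659%, 0.601% and 0.532% of their sum with Hspa8 in fresh and 0.599%, 0.525% and 0.485% in RNA-Best libraries (exact permutation test, p = 0.2, adjusted p = 0.267). In both preparations the inducible HSP70 genes were thus under 1% of the cytosolic HSP70 counts considered.

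**Figure D2:**
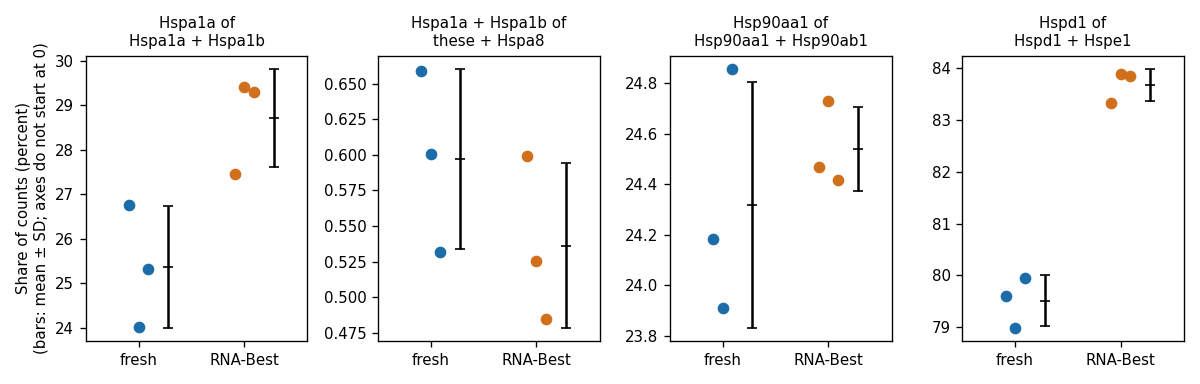
Share of counts within 4 chaperone pairs or groups in each library, in percent, with the mean and SD of each group beside the points; the vertical axes do not start at 0. The fresh and RNA-Best points are apart for Hspd1 of Hspd1 and Hspe1 (79.5% against 83.7% on average) and overlap for the HSP90 share.

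Fold changes were read against gene length because the log2 fold change rose with length across all genes tested (Spearman's rho 0.522 over 14689 genes, which are not independent replicates). The median log2 fold change was -0.18 for genes of 1 to 2 kb, where Hspe1 (1474 bases) and Hspb1 (1031 bases) lie, -0.13 for 2 to 3 kb, -0.06 for 3 to 4 kb, 0.03 for 4 to 6 kb and 0.16 for 6 to 10 kb, where Hsph1 (7266 bases) lies. The log2 fold change minus the median of the bin was -0.20 for Hspe1, -0.20 for Dnajb1 (3204 bases), -0.15 for Hspa1b (2803 bases), -0.11 for Hsph1 and -0.09 for Hspb1. It was 0.14 for Hspd1 (2642 bases), 0.14 for Hsp90ab1 (2999 bases), 0.09 for Hsp90aa1 (3931 bases) and 0.08 for Hspa1a (2967 bases), and -0.05 for Hspa8 (4301 bases). Members thus lay on both sides of the median of genes of their length.

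**Figure D3:**
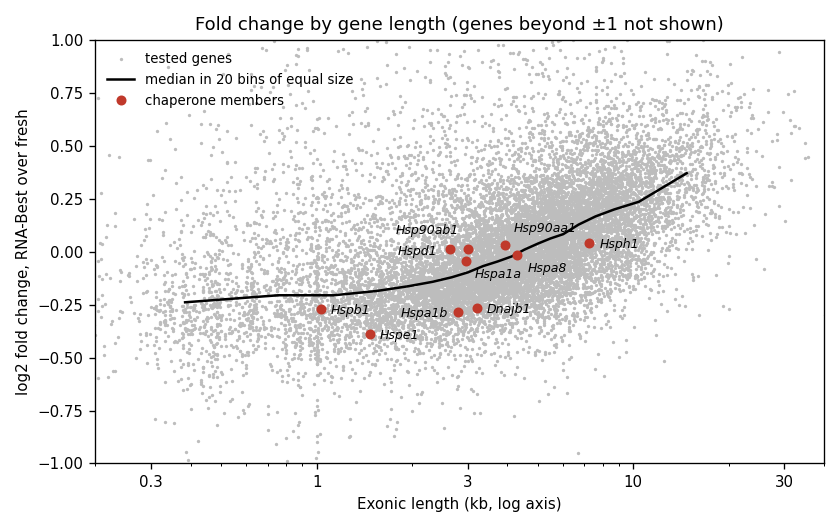
log2 fold change (RNA-Best over fresh) against exonic length in kilobases on a log axis, for the genes tested (grey), with the median in 20 bins of equal gene number (black line) and the 10 chaperone genes in red. Hspe1, Dnajb1 and Hsph1 lie below the line, and Hspd1 and Hsp90ab1 above it.

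With a loess offset for exonic length in each library, 3 of the 10 were called, Dnajb1, Hspe1 and Hsph1, beside 40.8% of all genes. All 3 were lower, beside 25.2% of all genes called lower, and 0 were higher, beside 15.5%. At an unadjusted p under 0.05 edgeR with this offset had 4 lower and 2 higher, without a computed share of all genes. Hspe1 was then at -0.28 ± 0.04 (edgeR, SE, adjusted p = 5.98e-06) and Dnajb1 at -0.23 ± 0.04 (edgeR, SE, adjusted p = 7.92e-05). Hspb1 moved to -0.14 (edgeR, adjusted p = 0.354) and Hspa1b to -0.23 (edgeR, adjusted p = 0.102), and neither was called. Hsph1 turned from 0.04 to -0.11 ± 0.04 (edgeR, SE, adjusted p = 0.0173). That last call rested on which length was taken, since the longest coding transcript of Hsph1 has 3802 bases against 7266 exonic bases, and with an offset for transcript length its log2 fold change was -0.04 (edgeR, adjusted p = 0.423). With that offset 3 of the 10 were called, Dnajb1, Hspe1 and Hspa1b, beside 36.8% of all genes. Hspe1 was then at -0.23 and above Dnajb1 and Hspa1b, both at -0.29, so the order of the members depended on the length used. Dnajb1 and Hspe1 were therefore the members called lower under no offset and under both offsets.

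**Figure D4:**
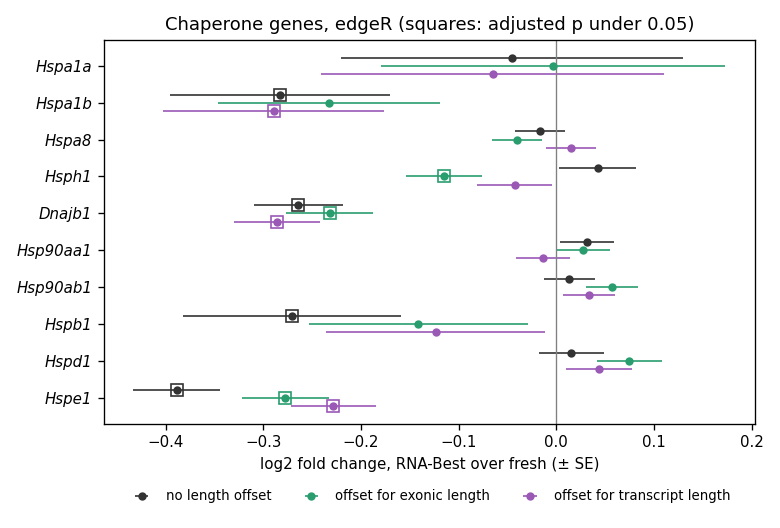
log2 fold change (RNA-Best over fresh) of the 10 genes with its standard error from edgeR, without an offset and with an offset for exonic or transcript length; squares mark an adjusted p under 0.05. Dnajb1 and Hspe1 carry squares in all 3 fits, and Hsph1 only with the exonic length.

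Related chaperone genes were taken from 7 lists, 91 symbols in all, of which 90 were in the table and 81 passed the filter. Of these, 54 were called, 41 lower and 13 higher in RNA-Best, and their median log2 fold change was -0.12. Over all genes tested, 24.8% were called lower and 26.0% higher, against which the counts of each list below are read. Beside the 4 of 10 members, the difference in these shares was not tested.

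The mitochondrial genes beside Hspd1 and Hspe1 all had negative log2 fold changes. Of the 14 genes of mitochondrial chaperones and proteases, 9 fell and 0 rose, with a median of -0.15. At an unadjusted p under 0.05, without a computed share of all genes, edgeR had 10 lower and 0 higher. DESeq2 and limma-voom called 8 and 9 lower and 0 higher. Over all genes these tools called 18.7% and 24.2% lower and 21.7% and 26.4% higher. Grpel1, the nucleotide exchange factor of mitochondrial HSP70, averaged 106 CPM in fresh and 83.1 CPM with RNA-Best (log2 fold change -0.37 ± 0.04, SE, edgeR, adjusted p = 5.61e-10). Pam16, a subunit of the import motor, was at -0.36 and Dnajc15, a J-domain protein of the inner membrane, at -0.30, and both passed the test. Their size depended on the fit, with Pam16 at -0.18 under the transcript length offset and Dnajc15 at -0.55 under it, at -0.20 without RNA-Best replicate 1 and at -0.47 without RNA-Best replicate 3. Hspa9, the mitochondrial HSP70 itself, averaged 371 CPM in both groups, with a log2 fold change of -0.01 (edgeR, adjusted p = 0.752). With the exonic length offset 8 of the 14 were called, all lower.

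In the cytosol, of 14 genes of the chaperonin that folds actin and tubulin and of the prefoldin that feeds it, 11 fell and 0 rose, with a median of -0.13. At an unadjusted p under 0.05, again without a computed share of all genes, edgeR had the same counts. DESeq2 and limma-voom called 9 and 11 lower and 0 higher, beside 18.7% and 24.2% of all genes called lower by these tools. The prefoldin subunits Pfdn6 at -0.37, Pfdn1 at -0.28 and Pfdn5 at -0.21 had the largest log2 fold changes of those called, but with the transcript length offset Pfdn6 was at -0.21 and Pfdn1 at -0.14, and the Pfdn5 call was lost (-0.07, adjusted p = 0.0822). With the exonic length offset 7 of the 14 were called, all lower, and Pfdn1 was at -0.15 and Pfdn5 at -0.10. The largest log2 fold changes of the list were then Cct7 at -0.34 (-0.20 without it), Pfdn6 at -0.25 and Cct3 at -0.23 (-0.11 without it). Tcp1, Cct6a and Cct8 passed the threshold with neither fit.

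Partners of HSP70 and HSP90 were called in both directions. Of 23 HSP70 co-chaperones 8 fell and 5 rose, and with the exonic length offset 8 were called lower and 2 higher. Hspbp1, which strips nucleotide from HSP70, averaged 62.0 CPM in fresh and 44.8 CPM with RNA-Best (log2 fold change -0.48 ± 0.05, SE, edgeR, adjusted p = 1.28e-10). Dnajc13, a J-domain protein of endosomes, rose from 43.1 to 62.2 CPM (0.49 ± 0.05, SE, edgeR, adjusted p = 1.28e-10), but its log2 fold change was 0.19 with the exonic and 0.16 with the transcript length offset, both still called. Dnaja4 rose from 12.5 to 16.8 CPM (0.38, edgeR, adjusted p = 0.000385). Of 18 HSP90 co-chaperones 10 fell and 4 rose, and with the exonic length offset 11 were called lower and 2 higher. Those that fell include Pih1d1 at -0.34 (-0.21 with the transcript length offset) and the kinase-loading Cdc37 at -0.29 (-0.49 with the exonic and -0.63 with the transcript length offset). Aarsd1 had the largest log2 fold change of the list, 0.74 ± 0.26 (edgeR, SE, adjusted p = 0.0274), at a mean of 0.799 CPM in fresh and 1.48 CPM in RNA-Best libraries. The Aarsd1 call was lost without fresh replicate 1 (adjusted p = 0.0567), RNA-Best replicate 1 (adjusted p = 0.0657) or RNA-Best replicate 2 (adjusted p = 0.106), with DESeq2 (adjusted p = 0.0925), with no filter (adjusted p = 0.0661) and in the test against a change of 1.2-fold (adjusted p = 0.151).

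Heat shock factors and the factor-binding Hsbp1 gave changes of both signs. Hsf1, the main stress-responsive factor, averaged 81.6 CPM in fresh and 70.2 CPM with RNA-Best (log2 fold change -0.23 ± 0.04, SE, edgeR, adjusted p = 2.07e-05), and it was at -0.38 with the exonic and -0.17 with the transcript length offset, both called. Hsbp1, which binds and restrains that factor, was at -0.28 (edgeR, adjusted p = 5.58e-07), and at -0.19 and -0.15 with these offsets, both called. Hsf2 was at 0.18 (edgeR, adjusted p = 0.015), a call lost without RNA-Best replicate 3 (adjusted p = 0.117), with DESeq2 (adjusted p = 0.0798), after thinning (adjusted p = 0.145) and with no filter (adjusted p = 0.139). Its sign turned with the exonic length offset (-0.06, adjusted p = 0.458) but not with the transcript length offset (0.19, adjusted p = 0.0138).

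The other genes of the HSP70 family were the only related list with a positive median, 0.16, with 3 of 6 tested genes higher and 0 lower. At an unadjusted p under 0.05, a threshold without a computed share of all genes, edgeR also had 3 higher and 0 lower. DESeq2 and limma-voom called 2 and 3 higher and 0 lower, beside 21.7% and 26.4% of all genes called higher by these tools. Hspa4l, a cytosolic HSP110 relative, rose from 110 to 132 CPM (0.25 ± 0.04, SE, edgeR, adjusted p = 5.24e-07). Hspa12a was at 0.18 and Hspa13 at 0.13, and each lost its call without some single libraries: Hspa12a without fresh replicate 1 (adjusted p = 0.0605), RNA-Best replicate 1 (0.13) or RNA-Best replicate 3 (0.0925), and Hspa13 without fresh replicate 3 (0.0506) or RNA-Best replicate 1 (0.172). Both calls were also lost after thinning (adjusted p = 0.227 for Hspa12a and 0.0691 for Hspa13) and with no filter (0.151 and 0.15), and that of Hspa12a with DESeq2 (0.0974). With the exonic length offset the median of this list was -0.05, 0 of its genes were called in edgeR (0 also at an unadjusted p under 0.05), and Hspa4l was at -0.06 (edgeR, adjusted p = 0.189). With the transcript length offset Hspa4l was called in the opposite direction, lower with RNA-Best (-0.15, edgeR, adjusted p = 0.000895), so its direction depended on the length used. Hspa12a and Hspa13 were not called with either offset. Of the small heat shock proteins beside Hspb1, 2 passed the filter, and Hspb6 was at -0.18 (edgeR, adjusted p = 0.0172), a call lost without RNA-Best replicate 3 (adjusted p = 0.227), with the exonic (-0.11, adjusted p = 0.174) or the transcript length offset (-0.06, adjusted p = 0.465), after thinning (adjusted p = 0.367) and with DESeq2 (adjusted p = 0.0716).

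**Figure D5:**
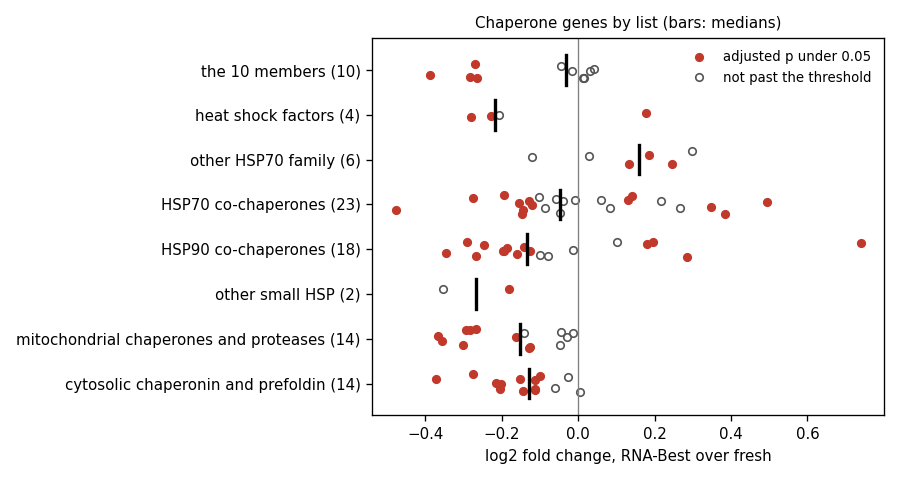
log2 fold change (RNA-Best over fresh) of the 10 members and of the related chaperone genes tested, by list, with the number of genes in brackets, filled red points for an adjusted p under 0.05 in edgeR and black bars at the medians. The mitochondrial and cytosolic chaperonin lists lie mostly below 0, with medians of -0.15 and -0.13, and the other HSP70 family above it, at 0.16.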

How the data were processed

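RNA-seq of LβT2 cells, 3 fresh and 3 RNA-Best libraries, was used. Per the authors' methods, single reads were mapped to GRCm38 by STAR 2.5.1b under GENCODE M8 and summarised by featureCounts 1.5.0-p1. The deposited table holds estimated counts with no scaling for depth. Some values are parts of counts, and the setting that divided reads is not given in the sources used here. Columns named for stabilized cells were read as the RNA-Best samples of the same number, since RNA-Best is the series' only stabilizer.

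Counts were rounded and fitted in R 4.3.3 with edgeR 4.0.16 (TMM, filterByExpr with a minimum count of 10, quasi-likelihood test, Benjamini-Hochberg adjustment over all genes). CPM used unrounded and family shares rounded values. The factors of TMM lay between 0.994 and 1.01. The test was run on simulated counts with known changes. Limma 3.58.1 (voom) and DESeq2 1.42.0 were alternatives. Exonic lengths and positions were taken from GENCODE M21, which uses the same assembly, and matched 46574 genes. Length offsets were loess fits (span 0.5) per library.

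In pairs of libraries of a group the chi-square of counts was 1.08 to 2.21 per gene, and no pair was treated as duplicates. The members and lists were chosen with earlier results of these data known. Named are the 10 members and, of each related list, up to 3 called genes with the largest absolute log2 fold change. Hspa9, Tcp1, Cct3, Cct6a, Cct7 and Cct8 were named after their values were seen. Counts without molecular identifiers are not independent molecules, so counting errors cover counting only.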

Additional observations from a re-analysis of the deposited data

How the results depend on the processing

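Log2 fold changes here are RNA-Best over fresh. The direction of Hspa1b, Dnajb1, Hspb1 and Hspe1 was negative in every fit tried, and 0 members were called higher in any. Of the alternative values of the members, 148 kept their direction and their side of the threshold, 24 lost a call (14 of them for Hspb1, 9 for Hspa1b and 1 for Dnajb1) and 1 gained it with the same sign, Hspa8 with no filter (-0.06, adjusted p = 0.04). Hsph1 gained a call with its sign turned, under the exonic length offset without and with the replicate block (adjusted p = 0.0173 and 0.00736). The 4 members called, all lower, stood beside 7479 of 14736 genes called in the main fit. They became 2 with DESeq2's Wald test, beside 5955 of 14736 genes, and 2 after thinning to 4909268 counts, beside 5247 of 13006 genes. In a test against a 1.2-fold change 1 member was called, and 4 related genes and 1693 of all genes passed it. Without single libraries the members called ranged from 2 to 4, and all genes called from 6357 to 7273. The replicate numbers did not pair the libraries (correlations of same-numbered deviations -0.0084, 0.012 and -0.0077), and with a replicate block 2 members, 56 related and 7472 of all genes were called; the calls of Hspa1b and Hspb1 were lost. The summed level per exonic length was 0.361% (fresh) and 0.385% (RNA-Best). The share of Hspa1a in the Hspa1 pair turned from 3.36 to -4.22 percentage points on thinning.

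Other signs turned as follows, and the cause was not tested. With no filter Hsph1 was at -0.0044, Hsp90aa1 at -0.0152, Hsp90ab1 at -0.0336 and Hspd1 at -0.0317, where the median of all genes was -0.06. With the exonic length offset Hsph1 was at -0.11, Hsf2 at -0.0612, Hspa4l at -0.0588, Hspa12a at -0.0400 and Hspa13 at -0.0082, and with the replicate block as well Hspa1a was at 0.0264, Hsph1 at -0.13, Hsf2 at -0.0758, Hspa4l at -0.0621 and Hspa12a at -0.0401. With the transcript length offset, chosen after seeing the data, Hspa8 was at 0.0149, Hsph1 at -0.0424, Hsp90aa1 at -0.0137, Hspa12a at -0.0337 and Hspa4l at -0.15, of which only Hspa4l was called (adjusted p = 0.000895). Thinning put Hsph1 at -0.0068 and Hspa1a at -0.55 (adjusted p = 0.136), under Hspe1 at -0.38. Leaving out single libraries gave Hspa1a values from -0.14 to 0.0871, positive without fresh replicate 1 (0.0871) or RNA-Best replicate 3 (0.0246), and Hspd1 values from -0.0227 to 0.0495, negative without fresh replicate 2 (-0.0182) or RNA-Best replicate 3 (-0.0227). Depth limits Hspa1a, Hspa1b and Hspb1, which had 15.2 to 82.2 counts in the RNA-Best libraries.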
